A study of Mus musculus with 6 samples.

Results

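The genes described here make up the ISG15 conjugation and deconjugation system of the mouse. They are the 6 genes Isg15, Uba7, Ube2l6, Herc6, Trim25 and Usp18, taken by name from a deposited table of 22027 protein-coding genes, and all 6 were present and passed the filter on low values. The set was selected on its names after the normalised read counts of both groups had been seen. The difference between the groups is therefore given for it as a description, without a p-value for any of the 6 genes. Where a test across all genes called some of them, the call is also only a description. RNA was sequenced from RAW 264.7 cells, a mouse macrophage cell line with wild-type genotype, 48 h after lipofection with 10 pmol of siRNA. The sample titles name 3 libraries siCTL, for a non-targeting siRNA, and 3 libraries siTET3, for a single siRNA against Tet3, whose product oxidises methylated cytosine in DNA. The treatment field names siTET3 for all 6 libraries, so the groups rest on the titles. The labels do not say whether replicates were separate cultures, and p-values therefore cover the spread among 6 libraries that may be technical repeats. The RNA came from whole cultures, in which a change in the number of expressing cells and a change in RNA per cell cannot be told apart.

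ISG15 is a small ubiquitin-like protein that cells make in response to type I interferon and attach to other proteins. UBA7 activates it, UBE2L6 (also called UBCH8) carries it, and a ligase passes it to the target. HERC6 is the main ISG15 ligase in mouse, where HERC5 has that role in human cells. TRIM25 is better known as a ubiquitin ligase for the RNA sensor RIG-I and has also been described as an ISG15 ligase. USP18 cleaves ISG15 from its targets and also binds the interferon receptor subunit IFNAR2, where it dampens signalling. In macrophages these genes belong to the antiviral programme, and secreted or free ISG15 has roles of its own.

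The sequence before the start of Isg15 is shown because interferon-responsive promoters carry a known element, the interferon-stimulated response element (ISRE). Its core, a pair of GAAA blocks 2 bases apart, was searched on both strands, together with a shorter core, AAANNGAAA, that lies inside it, and with TTCNNNGAA, the core of the gamma-activated sequence (GAS). Promoters were RefSeq windows on GRCm38.p6 from 250 bases before to 50 bases after the start, and 5 of the 6 genes matched an entry. The Isg15 sequence covers chr4:156200819-156201068 on the minus strand and is written 5′ to 3′ along the gene. The Uba7 stretch covers chr9:107975529-107975558 on the plus strand. Capitals mark the matches.
Isg15: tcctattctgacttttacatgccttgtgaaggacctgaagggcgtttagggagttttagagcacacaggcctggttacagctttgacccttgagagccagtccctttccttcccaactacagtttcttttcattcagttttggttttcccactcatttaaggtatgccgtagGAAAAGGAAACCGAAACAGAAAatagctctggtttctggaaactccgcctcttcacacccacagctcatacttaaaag
Uba7: actcagtctagTTTCACTTTtggtttcctg
The capitals in Isg15 held 3 overlapping matches to the longer core, from position -78 to position -57 relative to the RefSeq start. The capitals in Uba7 held 1 match to the shorter core on the opposite strand, from position -27 to position -19. The windows of Ube2l6, Herc6 and Trim25 held neither core, and none of the 5 windows held the GAS core. Over all 32851 promoters of this length, 3.44% held the longer ISRE core, 10.6% the shorter one and 8.30% the GAS core. A match describes letters and is not a measured binding site.

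The libraries held between 29587171 and 61709131 reads on genes, and 1 read was worth between 0.634 and 1.27 normalised units. Values below are the authors' size-factor-scaled read counts, called normalised read counts, and the lowest read number behind any value of the 6 genes was 280. Tet3 mRNA was not detectably lower where it was targeted, with 2036 ± 130 normalised reads in the siCTL libraries against 1957 ± 21.2 in those labelled siTET3, each SD with n = 3, a log2 change of -0.06 (limma adjusted p = 0.699). All 8 macrophage markers were expressed, with summed normalised read counts of 453396 to 533410 in the siCTL libraries and 452581 to 483262 in those labelled siTET3. All 4 epithelial markers were at 0 in every library. Replicate 2 of siCTL stood apart from the rest. Its summed fibroblast markers reached 395 normalised reads, from Col1a2 and Pdgfra, against 7.13 to 8.99 in the other 5 libraries. Its reads also depended most on base content, by 0.48 on the log2 scale per 10 percentage points of GC. The other siCTL libraries were at -0.06 and 0.06. Those labelled siTET3 were at -0.19 to -0.15, below every siCTL library. The part of these differences in the results below was not tested.

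Of the 6 genes, 5 were higher in every library labelled siTET3 than in any siCTL library, and Trim25 was not. Usp18 and Isg15 differed most, at more than 3 times the siCTL mean, Herc6 stood at 2.04-fold, and Ube2l6 and Uba7 stood at 1.37-fold and 1.33-fold. Across all 11591 genes tested, 16.1% were higher without overlap between the groups. The limma test across all genes, at an adjusted p under 0.05, called 3 of the 6 (Isg15, Usp18 and Herc6), where 0.293% of all genes were called higher. In the authors' deposited table, 5 of the 6 passed at the same threshold with a higher level in siTET3, where 1.55% of all genes did. The genes were chosen with these differences in view, and nothing is read from these counts.

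**Figure D1:**
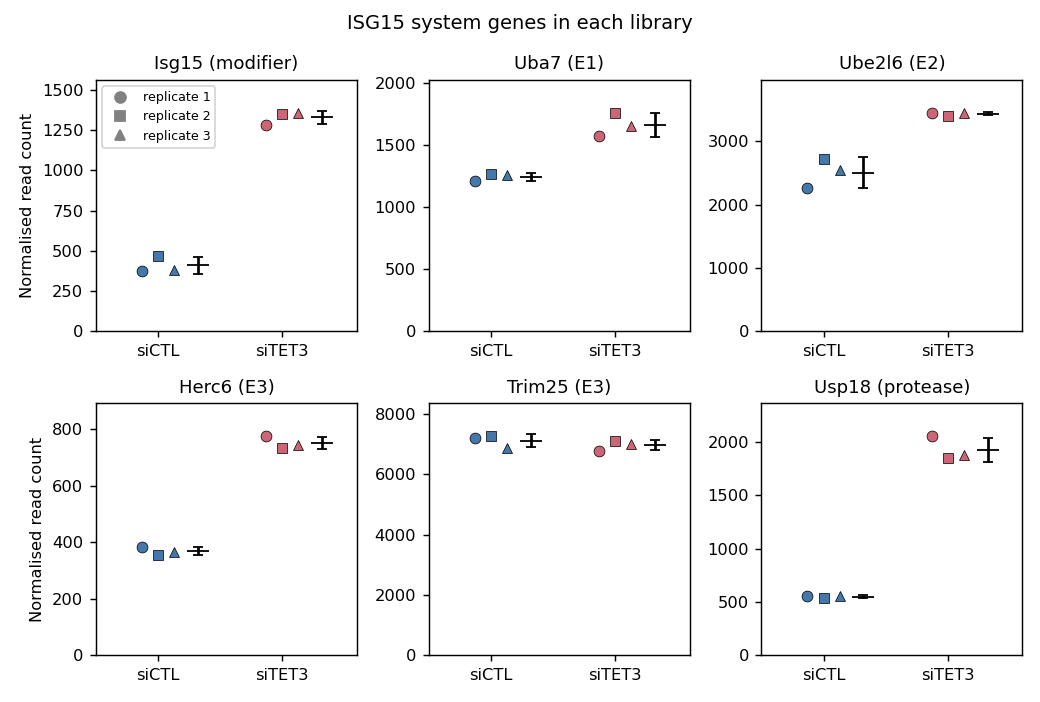
Normalised read count (vertical axes, from 0, scaled per gene) of the 6 genes in each siCTL (blue) and siTET3 (red) library. Symbols mark replicates 1 to 3, and bars beside them give the mean ± SD. In every panel except that of Trim25 the lowest siTET3 library lies above the highest siCTL library.

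Isg15, the modifier itself, lies on chromosome 4 from 156199424 to 156200818 of its minus strand (GRCm38, ENSMUSG00000035692.6). Its normalised read counts were 376, 469 and 383 in the siCTL libraries and 1284, 1349 and 1360 in those labelled siTET3. Replicate 2 was the highest siCTL library, and it still lay far below every siTET3 library. The means were 409 ± 51.6 and 1331 ± 40.9 (SD, n = 3 each), a log2 change of 1.71 ± 0.11 (SE) or 3.26-fold. The log2 change was the 65th highest of all genes tested. A processed pseudogene, AC151275.1, is 95.2% identical to Isg15 over 482 bases and is not among the genes listed, so reads shared with it could be counted for Isg15.

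Uba7, the activating enzyme, lies on chromosome 9 from 107975505 to 107984060 on the plus strand (ENSMUSG00000032596.14). Its normalised read counts were 1205, 1264 and 1260 in the siCTL libraries and 1571, 1760 and 1650 in those labelled siTET3. The siCTL libraries lay close together, and the lowest siTET3 library was 1.24 times the highest of them. The means were 1243 ± 33.1 and 1660 ± 94.6 (SD, n = 3 each), a log2 change of 0.42 ± 0.09 (SE). Uba7 shares 233 exon bases with Gm20661 on the same strand, and Gm20661 did not exceed 4.44 normalised reads in any library.

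Ube2l6, the conjugating enzyme that takes ISG15 from UBA7, lies on chromosome 2 from 84798828 to 84810335 on the plus strand (ENSMUSG00000027078.14). Its normalised read counts were 2256, 2727 and 2543 in the siCTL libraries and 3444, 3407 and 3457 in those labelled siTET3. The siCTL libraries were spread more widely than the siTET3 libraries, which were almost level, and the groups did not overlap. The means were 2509 ± 237 and 3436 ± 26.1 (SD, n = 3 each), a log2 change of 0.46 ± 0.10 (SE). Its transcript is 90.6% identical over 498 bases to D10Wsu102e, so reads there could be split between these genes. The same region is 95.1% identical over 508 bases to Gm17167, which is not among the genes listed. Gm47054, Gm15721 and Gm19265, also not listed, matched there at 90.6% to 93.9%. Reads shared with these could be counted for Ube2l6.

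Herc6, the main mouse ligase, lies on chromosome 6 from 57581000 to 57664632 on the plus strand (ENSMUSG00000029798.11). Its normalised read counts were 383, 355 and 364 in the siCTL libraries and 776, 733 and 745 in those labelled siTET3. Each group was tight, and every siTET3 library was above every siCTL library. The means were 367 ± 14.5 and 751 ± 21.9 (SD, n = 3 each), a log2 change of 1.03 ± 0.09 (SE). Herc6 has the lowest GC content of the 6 genes, 39.4% against 49.9% to 54.8% in the others. Its log2 change was 0.64 once the dependence on base content was removed from each library, and 0.85 when siCTL replicate 2 was also left out, and limma called it in the second setting and not in the first. It shares 1269 exon bases with Gm45193 on the same strand, and reads there cannot be told apart.

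Trim25, the other ligase, lies on chromosome 11 from 88999376 to 89020293 on the plus strand (ENSMUSG00000000275.16). Its normalised read counts were 7226, 7272 and 6888 in the siCTL libraries and 6788, 7116 and 7019 in those labelled siTET3. The groups overlapped, and the lowest value was in siTET3 replicate 1. The means were 7128 ± 209 and 6974 ± 169 (SD, n = 3 each), a log2 change of -0.03 ± 0.08 (SE). The sign of this small difference turned under other scalings, to 0.05 with library size alone and to 0.01 with the base-content dependence removed.

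Usp18, the protease that removes ISG15, lies on chromosome 6 from 121245906 to 121270917 on the plus strand (ENSMUSG00000030107.10). Its normalised read counts were 552, 537 and 558 in the siCTL libraries and 2056, 1850 and 1883 in those labelled siTET3. The siCTL libraries were almost level, and the lowest siTET3 library was 3.32 times the highest of them. The means were 549 ± 10.7 and 1930 ± 111 (SD, n = 3 each), a log2 change of 1.81 ± 0.09 (SE) or 3.51-fold. This was the largest difference of the 6 genes and the 51st highest of all genes tested. Usp18 shares 124 exon bases with Gm44148 on the opposite strand, and no source says whether reads were counted by strand.

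**Figure D2:**
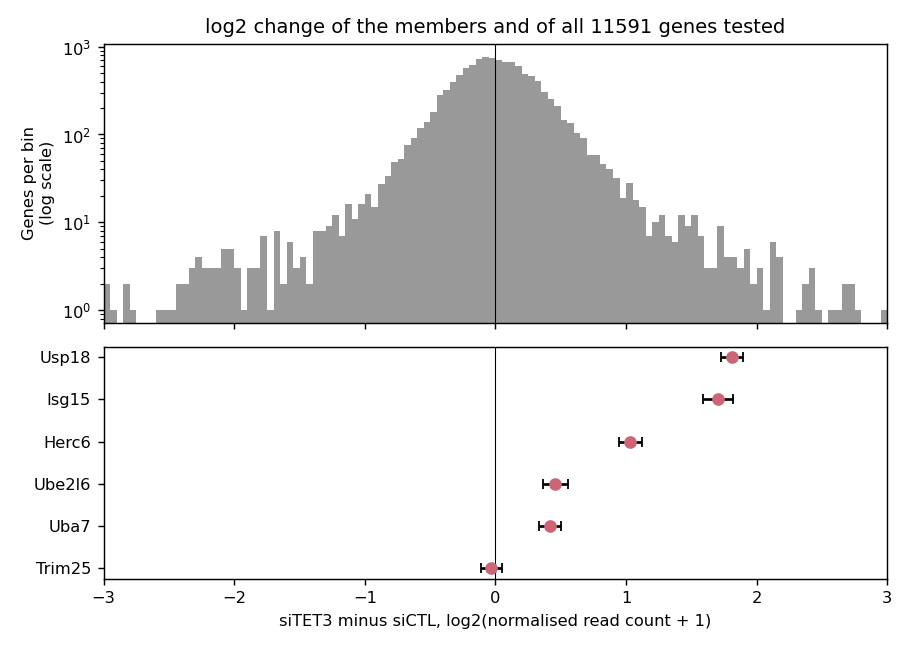
The upper panel counts all genes tested by their log2 change, siTET3 minus siCTL, on a log scale of genes per bin, and its axis runs from -3 to 3, which leaves 23 genes outside. The lower panel gives the 6 genes on the same axis with bars of 1 SE, from Usp18 at 1.81 to Trim25 at -0.03.

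The plot of log2 changes, made without removal of the base-content dependence, shows 3 levels of difference. The modifier and the protease that removes it were near 1.7 to 1.8, Herc6 was near 1.0, and the activating and conjugating enzymes were between 0.42 and 0.46. The lower 2 levels were not separate once that dependence was removed from all libraries. Herc6 was then at 0.64 ± 0.18, Uba7 at 0.57 ± 0.09 and Ube2l6 at 0.51 ± 0.08 (SE). With siCTL replicate 2 left out as well, they were at 0.85, 0.50 and 0.53. The median log2 change of all genes tested was 0.00, and 49.3% of them were positive. Leaving out each library in turn kept the log2 change between 1.65 and 1.81 for Isg15, 1.76 and 1.84 for Usp18, 1.01 and 1.06 for Herc6, 0.38 and 0.52 for Ube2l6 and 0.37 and 0.46 for Uba7. Without siCTL replicate 2, the values were 1.81 for Isg15, 1.79 for Usp18, 1.01 for Herc6, 0.52 for Ube2l6, 0.43 for Uba7 and -0.02 for Trim25, and limma then called 5 of the 6, where 1.7% of all genes were called higher. With siCTL replicate 2 left out and the base-content dependence removed as well, limma called 5 of the 6, where 2.11% of all genes were called higher, and with that dependence removed from all 6 libraries it called 2, where 0.388% were. Without any one of the siTET3 libraries, limma called 1 of the 6, Usp18, where 0.0259%, 0.0173% and 0.0173% of all genes were called higher without replicates 1, 2 and 3. Without siCTL replicate 3 it called 2, where 0.0776% of all genes were called higher. DESeq2 on the recovered reads called 5 of the 6, where it called 1.91% of all genes higher and 1.93% lower, and edgeR called 3 of the 6, where it called 0.285% higher. Because the 6 genes were chosen with the difference in view, nothing is read from these counts either.

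**Figure D3:**
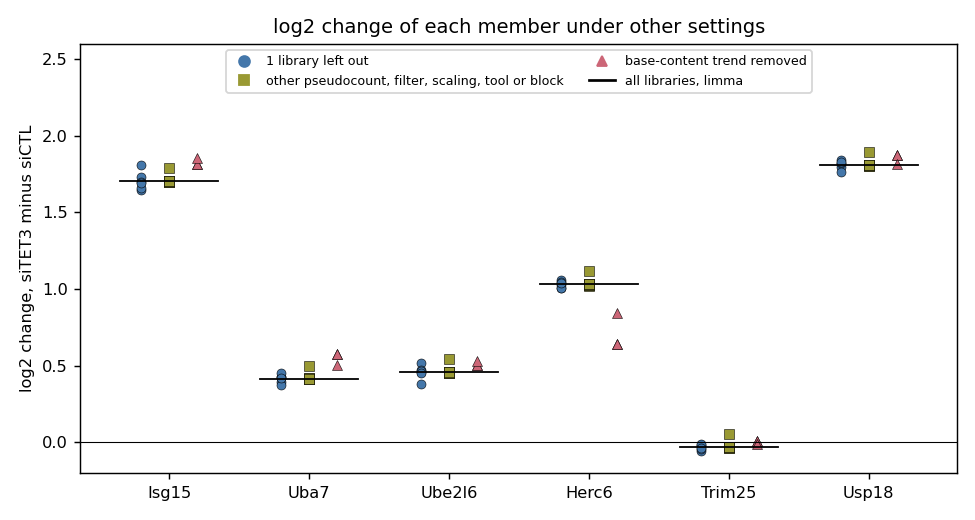
log2 change of each gene, siTET3 minus siCTL, with all libraries (line), with 1 library left out (circles), with another pseudocount, filter, scaling, tool or block (squares) and with the base-content dependence removed (triangles). Herc6 moves most, from 1.03 down to 0.64.

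Levels of different genes were compared per kilobase (kb) of the longest protein-coding transcript. In siCTL, Ube2l6 was highest with 1608 ± 152 normalised reads per kb, followed by Trim25 with 1275 ± 37.5, Isg15 with 541 ± 68.2, Uba7 with 389 ± 10.3, Usp18 with 310 ± 6.04 and Herc6 with 77.0 ± 3.05 (SD, n = 3). The mRNA of the conjugating enzyme was thus at a higher level per kb than that of the modifier. In the libraries labelled siTET3, Ube2l6 had 2202 ± 16.7 normalised reads per kb, Isg15 1760 ± 54.1, Trim25 1248 ± 30.2, Usp18 1090 ± 62.7, Uba7 520 ± 29.6 and Herc6 158 ± 4.59 (SD, n = 3). Isg15 stood above Trim25, and Usp18 above Uba7, which was the reverse of siCTL. The ranges of neighbours in either order did not overlap. The order rests on the transcript length used: with all annotated exons merged, Usp18 was above Uba7 in siCTL too, and Isg15 was above Ube2l6 in the libraries labelled siTET3.

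**Figure D4:**
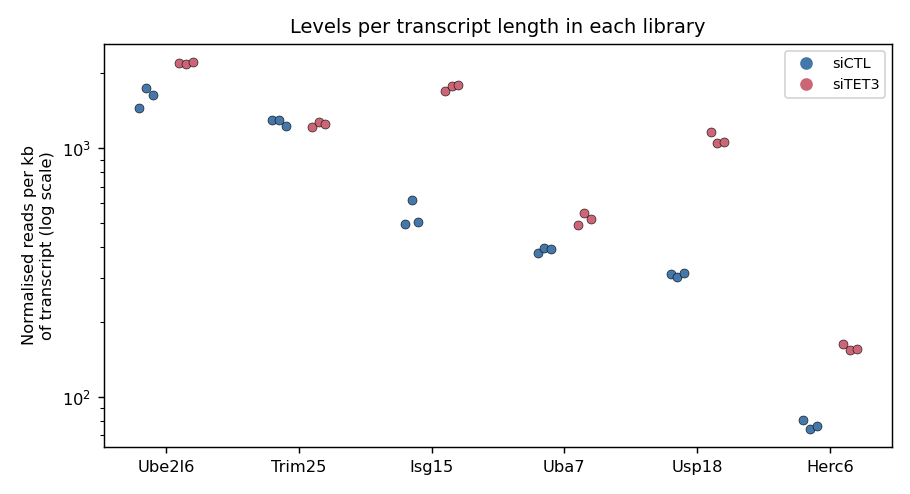
Normalised reads per kb of transcript (log scale) of the 6 genes in each siCTL (blue) and siTET3 (red) library, ordered by the siCTL mean. Isg15 passes Trim25 and Usp18 passes Uba7 in the siTET3 libraries, while Herc6 remains lowest.

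The ratio between modifier and protease did not separate the groups. The ratio of Usp18 to Isg15 per kb was 0.627, 0.489 and 0.622 in the siCTL libraries and 0.684, 0.585 and 0.591 in those labelled siTET3. These ranges overlapped. The ratio of Ube2l6 to Uba7 overlapped as well, at 4.13 ± 0.29 and 4.25 ± 0.26 (SD, n = 3). Against the modifier, the enzymes that attach it were at a lower ratio in the libraries labelled siTET3. Uba7 over Isg15 was 0.725 ± 0.076 in the siCTL libraries and 0.295 ± 0.012 in those labelled siTET3. Ube2l6 over Isg15 was 2.98 ± 0.21 and 1.25 ± 0.04, in the same order. Between the ligases, Trim25 over Herc6 was 16.6 ± 0.79 and 7.93 ± 0.42. The sum of the 6 genes per kb was 4201 ± 222 in the siCTL libraries and 6977 ± 36.3 in those labelled siTET3, and the share of Isg15 in it was 12.9% and 25.2%.

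Relatives of the enzymes were examined to see how the families as a whole compared. They were the genes of the activating enzyme, UBE2, HERC, USP and TRIM families without the 6 genes themselves. Those listed under UBE2 and USP share a symbol, not always an activity, and include Ube2cbp and Usp6nl. Of 122 relatives tested, limma called 1 higher and 0 lower, where 0.293% of all genes were called higher and 0.0604% lower. The unadjusted p was under 0.05 for 14 of the 122, where it was for 13.2% of all genes. EdgeR called 1, where it called 0.285% of all genes higher. DESeq2 called 4, with Trim30a, Ube2c and Trim12c higher and Trim47 lower, where it called 1.91% of all genes higher and 1.93% lower. The median log2 change of the relatives was 0.11, or 0.08 without siCTL replicate 2, and 74 of them were positive. The relative that passed was Trim30a, an interferon-induced TRIM protein, which rose from 734 ± 136 to 2090 ± 99.9 normalised reads (SD, n = 3 each; log2 change 1.53, limma adjusted p = 0.0179). Trim30a missed the threshold, with limma adjusted p between 0.102 and 0.190, when siCTL replicate 3 or any of the siTET3 libraries was left out.

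With all libraries, limma called no relative of Uba7, Ube2l6, Herc6 or Usp18. Ube2c, a conjugating enzyme of the mitotic anaphase-promoting complex, had 1915 ± 147 and 2547 ± 99.8 normalised reads (SD, n = 3 each; log2 change 0.41, limma adjusted p = 0.208). It passed without siCTL replicate 2 (log2 change 0.47, limma adjusted p = 0.0131). Removing the base-content dependence from all libraries let it pass too (log2 change 0.59, limma adjusted p = 0.0383). The 31 UBE2 genes tested had a median log2 change of 0.20 with 23 positive, and the median was 0.09 without siCTL replicate 2. Ube2l3, the closest namesake of Ube2l6 and a ubiquitin-conjugating enzyme, had 7430 ± 1189 and 8055 ± 381 normalised reads (SD, n = 3 each; log2 change 0.13, limma adjusted p = 0.576). Without siCTL replicate 2 the Ube2l3 log2 change was 0.01. The 42 genes tested with a Usp symbol had a median log2 change of 0.13, or 0.07 without that library. The 9 activating enzymes had a median of -0.02, which turned to 0.10 without it. Uba1, which activates ubiquitin, had a log2 change of -0.20 (limma adjusted p = 0.435), or -0.08 without it. The 4 other HERC genes had a median of 0.04, which turned to -0.05 without it, and Herc4 had a log2 change of 0.38 (limma adjusted p = 0.394), or 0.16 without it. The 36 TRIM genes had a median of -0.04 with 14 positive, and the median turned to 0.06 without it. They were spread from -1.07, for Trim47, to 1.88, for a gene with at most 24.5 normalised reads in any library. The unadjusted limma p was under 0.05 for 9 of the 36, where it was for 13.2% of all genes.

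Other ubiquitin-like modifiers have conjugation systems built in the same way. Of 58 genes tested from the NEDD8, SUMO, UFM1, URM1 and ATG8/ATG12 systems, limma called 0, edgeR called 0 and DESeq2 called 1 lower. Over all genes, limma called 0.293% higher and 0.0604% lower, and DESeq2 called 1.91% higher and 1.93% lower. The unadjusted limma p was under 0.05 for 3 of the 58, where it was for 13.2% of all genes. Their median log2 change was 0.07, or 0.01 without siCTL replicate 2, and 33 were positive. Usp2, Usp5, Usp14, Usp16, Usp21 and Arih1, other enzymes that have been described to act on ISG15, were tested as well. Limma, edgeR and DESeq2 each called 0 of these 6, 0 had an unadjusted limma p under 0.05, and their log2 changes lay between -0.12 and 0.36. Usp13, from the same list, was at 0 in every library.

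**Figure D5:**
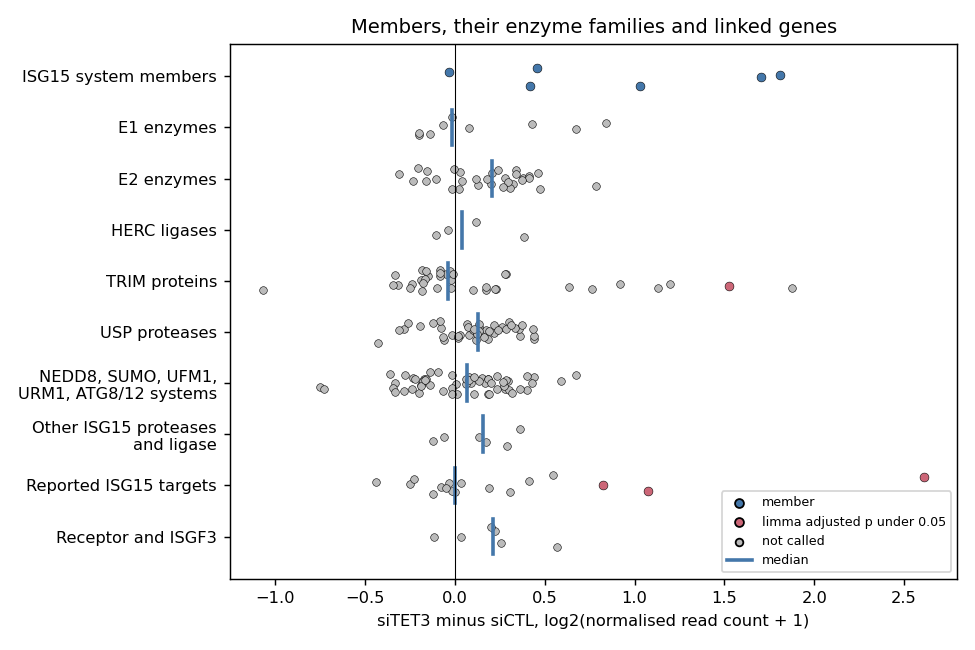
log2 change, siTET3 minus siCTL, of the 6 genes (blue) and of each tested gene in related lists, with red for a limma adjusted p under 0.05, grey otherwise, and a vertical line at each list's median. The medians of the enzyme families lie between -0.04 and 0.20, and single relatives lie between -1.07 and 1.88. Trim30a at 1.53 is the only relative in red.

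The interferon receptor and its signalling factors, which act upstream of these genes, were compared next. Of 6 such genes reported here, limma called 0, where 0.293% of all genes were called higher. The unadjusted limma p was under 0.05 for 1, where it was for 13.2% of all genes. EdgeR called 0 and DESeq2 called 1 higher, where DESeq2 called 1.91% of all genes higher. Their median log2 change was 0.21, or 0.10 without siCTL replicate 2, and 5 were positive. Limma called 2 of the 6 higher without that library, Irf9 and Stat2, where 1.7% of all genes were called higher.

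Irf9, a DNA-binding factor that acts on ISRE elements, had 1254 ± 121 and 1855 ± 26.5 normalised reads (SD, n = 3 each; log2 change 0.57, limma adjusted p = 0.115), and 0.00383 without siCTL replicate 2. Stat2 had a log2 change of 0.25 (limma adjusted p = 0.408), or 0.41 without siCTL replicate 2 (limma adjusted p = 0.0467). The receptor subunits Ifnar1 and Ifnar2, the latter bound by USP18, had log2 changes of 0.22 and 0.20 (limma adjusted p = 0.382 and 0.463), or 0.13 and 0.06 without siCTL replicate 2. The receptor kinases Jak1 and Tyk2 had log2 changes of 0.03 and -0.12 (limma adjusted p = 0.816 and 0.486). Interferon genes themselves were at or near the limit of detection. Of 8 listed, 6 were at 0 in every library, Ifnb1 had 4.90 normalised reads in siTET3 replicate 2 alone and Ifna2 had 3.82 in siTET3 replicate 3 alone.

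Proteins reported to carry or bind ISG15 were taken as a further list. It was chosen with earlier results of these data known, so nothing is read from its counts. Of 17 tested, limma called 3 higher and 0 lower, where 0.293% of all genes were called higher. The unadjusted limma p was under 0.05 for 4, where it was for 13.2% of all genes. EdgeR called 3 higher and DESeq2 4 higher, where they called 0.285% and 1.91% of all genes higher. The list's median log2 change was 0.00, and 9 were positive. The 3 that rose were Ifit1, which binds foreign RNA ends (log2 change 2.61, limma adjusted p = 0.00691), the RNA sensors Ddx58 (RIG-I, 1.07, adjusted p = 0.00864) and Ifih1 (MDA5, 0.83, adjusted p = 0.0238). All 3 are themselves known interferon-stimulated genes. Leaving out any single siTET3 library left none of the 3 under the threshold, with limma adjusted p between 0.0700 and 0.241. Mx1, an antiviral GTPase on the list, was under the filter, at 0 in the siCTL libraries and at 6.11, 6.54 and 17.8 normalised reads in the libraries labelled siTET3.

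For each gene, the 3 most similar patterns over the 6 libraries were sought among 9845 other genes, by the root mean square difference of centred log2 values. For Isg15 these were Usp18 at 0.15, Zbp1 at 0.15 and Xaf1 at 0.17. For Usp18 they were Ifi44 at 0.11, Isg15 at 0.15 and Zbp1 at 0.16. Isg15 and Usp18 were thus within each other's nearest 3. This distance includes the difference between the groups, which was in view when the 6 genes were chosen. Within the groups their order differed. Replicate 2 of siCTL was the highest siCTL library for Isg15 and the lowest for Usp18. Replicate 1 of siTET3 was the lowest siTET3 library for Isg15 and the highest for Usp18. For Herc6 they were Slfn4 at 0.04, Prr11 at 0.05 and Ddx58 at 0.06. Ube2l6 was nearest to Dhx58 and Parp10, each at 0.05, and to Ube2c at 0.05, and Uba7 was nearest to Racgap1, Spag5 and Phlpp2 at 0.04 to 0.05. No other member of the system was among the nearest 3 of Herc6, Ube2l6, Uba7 or Trim25. Trim25, which differed little between libraries, was nearest to Fh1, Slc25a20 and Kctd18, at 0.02 to 0.03.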

How the data were processed

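The authors deposited 1 table for the 6 libraries, with a signal value per gene that is a read count divided by 1 size factor per library; 100% of values were whole multiples of 1 read within 0.001 reads, read from the deposited values. Beside these the authors deposited log2 fold changes of siCTL over siTET3, turned around here, a test score per gene, p-values and adjusted p-values. The library kit was a stranded mRNA kit, per the labels' protocols. The build was GRCm38 (mm10), per the submitters' processing notes; the aligner, the counter and any use of strand in counting were not given in the sources used here.

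Genes with a mean of at least 10 normalised units (11591) were tested with limma 3.58.1 in R 4.3.3 on log2(value + 1), with a variance trend and group as the only term, and Benjamini-Hochberg adjustment over all genes at 0.05. Fold changes on this scale understate the change of low genes. Alternatives were pseudocounts of 0.5 and 5, no filter and a minimum of 50, library-size and TMM scaling, edgeR 4.0.16 and DESeq2 1.42.0 on the recovered reads (33 and 216 genes higher, 7 and 219 lower), removal of the base-content dependence, the replicate block and each library left out. The methods were tested on simulated counts with the same spread in every library, so no library stood apart there as siCTL replicate 2 did. Removal of the base-content dependence was tested on a trend added to a simulated library. Replicate pairs all differed by more than sampling noise (median chi-square 1.53 per gene or higher). Read totals of 29587171 to 61709131 put the floor of 3 reads at 1.90 to 3.82 units.

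Coordinates and lengths come from GENCODE M21, near copies from blastn 2.17.0 of its transcripts (at least 90% identity over 100 bases). Protein sequences were not used here, so closest proteins were not sought. The members and lists were chosen with earlier results of these data known, and 1 gene of the lists is not reported here. Named genes are the members, the list genes past the threshold (at most 6 by p) or otherwise up to 4 by level, and the 3 nearest patterns per member; Ube2c, Trim12c, Trim47, Ube2l3, Irf9, Stat2, Ifnar1, Ifnar2, Jak1, Tyk2, the lowly counted Mx1 and interferon genes and the full list of other ISG15 enzymes were added to complete small lists and counts, after their values were seen.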

Additional observations from a re-analysis of the deposited data

How the results depend on the processing

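Over 18 alternatives, the log2 change of Isg15, Uba7, Ube2l6, Herc6 and Usp18 kept its direction. The sign turned for Trim25 (0.053 with library size, 0.00603 with the base-content dependence removed, with or without the block), Tet3 (0.0286, and 0.0708 with the dependence removed, with or without the block), Jak1 (-0.00134 with it removed), Tyk2 (0.10 with it removed, 0.0469 without siCTL replicate 2 as well) and Ube2l3 (-0.00660 and -0.0709, likewise); the cause was not tested. Numbers of calls moved more than the changes. With each library left out, genes called higher ranged from 2 to 197 and lower from 0 to 123 (main 34 and 7), the 6 genes from 1 to 5 (main 3), relatives from 0 to 2 higher and 0 to 1 lower (main 1 and 0), receptor and signalling genes from 0 to 2 (main 0) and reported ISG15 targets from 0 to 4 (main 3). The upper ends came without siCTL replicate 2. With that library left out and the dependence removed, a setting added after seeing the data, calls were 244 higher and 154 lower, 5 of the 6 genes, 3 relatives and 2 receptor and signalling genes. DESeq2 called 216 higher and 219 lower, 5 of the 6, 3 relatives higher and 1 lower, 1 gene of the other ubiquitin-like systems and 1 receptor and signalling gene. Library-size scaling gave 2 genes lower, removal of the dependence alone gave 2 relatives and 1 receptor and signalling gene, and no filter gave 4 lower.

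The replicate numbers did not pair the libraries: same-numbered deviations correlated at 0.03, -0.06 and -0.10. The replicate block called 1 gene higher and 0 lower and 0 of the 6 genes, relatives, receptor and signalling genes and targets. With the block and the dependence removed, 4 genes were higher and 0 lower, with 2 of the 6 genes and 0 relatives, receptor and signalling genes or targets. Depth limits low genes: with 1 read worth up to 1.27 units, Mx1 and the interferon genes rest on few reads.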

Other observations

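Among the markers of other cell states, the osteoclast genes Acp5, Ocstamp and Ctsk had a negative log2 change, and Calcr had a positive one. RAW 264.7 cells can form osteoclasts when stimulated. The 4 markers Acp5, Ctsk, Calcr and Ocstamp summed to 45057 to 49168 normalised reads in the siCTL libraries and to 34759 to 35742 in those labelled siTET3. The log2 changes were -0.53 for Acp5, -0.50 for Ocstamp, -0.28 for Ctsk and 0.43 for Calcr, or 0.18 for Calcr without siCTL replicate 2. By limma 0 of the 4 were called, and 3 had an unadjusted p under 0.05, as did 13.2% of all genes. EdgeR called 0 and DESeq2 called 3 lower, where it called 1.93% of all genes lower. Without siCTL replicate 2, limma called 1 lower, Acp5 (limma adjusted p = 0.00682), where it called 123 of 11591 genes lower. Of the dendritic cell markers, 2 of 4 were tested and 0 were called by limma, edgeR and DESeq2, with log2 changes of 0.20 and 0.31 and 0 with an unadjusted limma p under 0.05.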
